A study of Mus musculus with 9 samples.

Results

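The vitamin D receptor (Vdr), the retinoid X receptors Rxra and Rxrb, and the enzymes Cyp27b1 and Cyp24a1 were followed in 9 RNA sequencing libraries of cultured mouse calvarial cells. They are 5 of the 25860 genes in the count table and were taken by gene symbol. All 5 symbols were found, and 3 of them (Vdr, Rxra and Rxrb) had enough counts to be tested. The set was chosen by the measured levels of Vdr, which were already known to be higher in the IRE1KO libraries, so the differences between genotypes in the 5 genes are given as a description, with no test.

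The cells were Osx1-Cre cells from the calvaria (skull roof bones) of newborn mice, taken by flow cytometry. In Osx1-Cre mice the osterix gene promoter drives Cre recombinase, and osterix (Sp7) marks cells committed to bone formation. Labels give 5 libraries as IRE1KO and 4 as WT, and the series' design text names Osx1-Cre cells for the 9 libraries without setting the Cre status of WT apart. Each library came from the pooled cells of 3 to 5 pups aged 2 to 4 days, grown in medium with 10% serum to 90% confluence. IRE1, the product of Ern1, is a kinase and ribonuclease of the endoplasmic reticulum that splices Xbp1 mRNA under stress.

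Vitamin D acts through a nuclear receptor. The liver enzymes Cyp2r1 and Cyp27a1 add a first hydroxyl group to vitamin D, Cyp27b1 adds the one that makes the active hormone calcitriol, and Cyp24a1 breaks the hormone down. Calcitriol binds VDR, which pairs with a retinoid X receptor on DNA at vitamin D response elements, direct repeats of a short hexamer. In osteoblasts the receptor is known to act on genes of bone matrix and of osteoclast support such as Spp1, Bglap and Tnfsf11, and Cyp24a1 is its most strongly induced target.

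Total counts were 18784636 to 22028075 per library. Levels are in CPM (the count relative to the library's size after TMM scaling), and a count of 3, taken as the detection floor, was 0.137 to 0.159 CPM. Ern1 ranged from 49.8 to 55.8 CPM over IRE1KO libraries and from 41.5 to 54.2 CPM over WT libraries, and a total per gene cannot show whether part of it is deleted, so it does not check the labels. Of the markers of the osteoblast lineage, Sp7 (13.6 to 24.6 CPM over both groups), Runx2 and Alpl were present, while Bglap, the osteocalcin gene of mature osteoblasts, was at 0 to 0.192 CPM. The first principal component of all tested genes (45.9% of the variance) placed WT library 4 at 56.7, apart from the other libraries at -23.4 to 15.1. Of 13712 tested genes 87 passed (edgeR quasi-likelihood, Benjamini-Hochberg adjusted p under 0.05), that is 0.634%, with 35 higher (0.255%) and 52 lower (0.379%) in IRE1KO.

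Vdr lies at chr15:97854425-97910630 on the minus strand (GRCm38, ENSMUSG00000022479). Rxra is at chr2:27676440-27762957 and Rxrb at chr17:34031812-34038399, both on the plus strand. Cyp27b1 is at chr10:127048250-127053006 on the plus strand and Cyp24a1 at chr2:170482708-170497145 on the minus strand. None of the 5 is on chromosome 11, where Ern1 lies. The far end of Cyp24a1 overlaps Pfdn4, a gene of the opposite strand, at chr2:170496428-170497145. Since the strand setting of the counting is not given in the sources used here, reads from that stretch could be counted for either gene.

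The promoters of Vdr and Rxra are shown because the first gene differed between the genotypes while its main partner did not separate them. Each is the 250 bases before the RefSeq start site (GRCm38.p6), read 5′ to 3′ on the strand of the gene, at chr15:97908297-97908546 (minus) for Vdr and chr2:27676951-27677200 (plus) for Rxra. Both lie inside the GENCODE span of their gene, other transcripts of which start further upstream, and the last 14 bases of the Vdr window are in a first exon of Vdr. Capitals mark GC boxes (GGGCGG on either strand, the type of site bound by SP1) and the E-box CAGGTG, the type of site bound by the Snail repressors.
Vdr: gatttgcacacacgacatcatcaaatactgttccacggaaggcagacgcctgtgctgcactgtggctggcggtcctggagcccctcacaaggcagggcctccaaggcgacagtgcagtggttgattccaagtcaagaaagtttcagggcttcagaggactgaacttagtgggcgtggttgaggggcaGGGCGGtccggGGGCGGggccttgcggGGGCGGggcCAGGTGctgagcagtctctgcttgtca
Rxra: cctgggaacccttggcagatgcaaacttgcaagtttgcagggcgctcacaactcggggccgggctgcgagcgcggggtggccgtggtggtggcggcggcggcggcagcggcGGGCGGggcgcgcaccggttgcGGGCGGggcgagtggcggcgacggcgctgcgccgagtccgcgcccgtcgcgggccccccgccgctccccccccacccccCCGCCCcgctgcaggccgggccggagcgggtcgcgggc

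The 250 bases before Vdr held 3 GC boxes, all on the strand of the gene and between 31 and 63 bases before the start site. The same length before Rxra held 3. The window before Rxrb, at chr17:34031562-34031811 (plus), held 2 and shares 121 bases with exons of Slc39a7 on the opposite strand. A GC box was present in 32.7% of the 32851 windows of this length in the RefSeq table. Vdr alone of the 3 windows had a CAGGTG E-box, 22 to 27 bases before the start, a motif present in 17.2% of all windows. G and C made up 61.2% of the Vdr window, 81.2% of the Rxra window and 69.2% of the Rxrb window, against a median of 52.4% over all windows.

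Vitamin D response elements were searched on both strands as single hexamers and as direct repeats of 2 hexamers with 3 bases between them. The hexamers were AGGTCA with its variant AGTTCA and also GGGTCA with its variant GGTTCA. The Vdr window held 1 hexamer, AGTTCA on the opposite strand, 86 to 91 bases before the start, and hexamers occurred in 38.6% of all windows. RefSeq lists a second start site for both partners. The window before that of Rxra, at chr2:27709042-27709291, held 3 hexamers and no GC box, and the one before that of Rxrb, at chr17:34032100-34032349 and wholly within exons of Rxrb, held 3 GC boxes and no hexamer. A direct repeat occurred in 13 windows of 32851 (0.0396%) and in none of the windows listed for Vdr, Rxra, Rxrb or Cyp27b1. TGACGTGG, the site of the unfolded protein response element that the IRE1 product XBP1 binds, was in 0.563% of all windows and in none of those. The Cyp27b1 window, at chr10:127047996-127048245, held a TATATA box 32 to 37 bases before the start and no GC box. Such matches describe the letters only.

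Vdr, the hormone receptor, was higher in every IRE1KO library than in any WT library. Its levels were 105.7, 103.7, 90.3, 110.8 and 90.4 CPM in IRE1KO libraries 1 to 5, and 72.4, 78.0, 72.2 and 69.1 CPM in WT libraries 1 to 4. The groups did not overlap: the lowest IRE1KO library was above the highest WT library, WT library 2. The IRE1KO mean was 100.2 ± 9.34 CPM (SD, n = 5) against 72.9 ± 3.71 CPM (SD, n = 4) for WT, a 1.37-fold difference (log2 fold change 0.46 ± 0.071 SE, edgeR). Of all tested genes, 3.65% had no overlap with IRE1KO higher and 3.28% with IRE1KO lower. This is the contrast that the choice of the gene used, and nothing is read from its share. In bulk libraries such as these, fewer cells of a type and less RNA per cell cannot be told apart.

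In the 9 fits that each left out 1 library, the log2 fold change of Vdr was 0.42 to 0.49. The choice of the gene rested on its place among the 87 genes above, which supports nothing further here and depended on the libraries kept. With 1 library left out, Vdr was among the genes called in 2 of the 9 fits. These were without WT library 1, which called 8.63% of all genes, and without WT library 4, which called 2.90%. The other fits called 2 to 8 genes in the whole table. DESeq2 called Vdr, as it did 4.14% of all genes, and limma voom did not (0.117% of all genes).

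**Figure D1:**
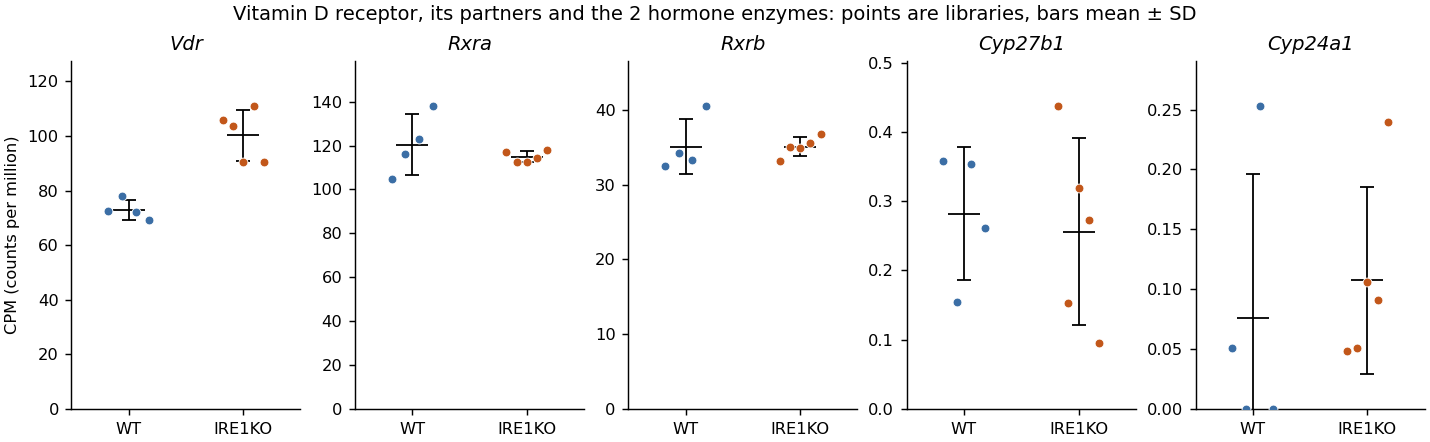
Levels of the 5 genes in CPM (vertical axes from 0, a separate scale for each gene) in WT (blue, n = 4) and IRE1KO (orange, n = 5). Points are libraries and bars are mean ± SD, cut at 0 for Cyp24a1. The Vdr points of the genotypes do not overlap (90.3 to 110.8 against 69.1 to 78.0 CPM), while those of the other 4 genes do.

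IRE1KO libraries themselves fell apart in Vdr, with libraries 1, 2 and 4 at 103.7 to 110.8 CPM and libraries 3 and 5 at 90.3 and 90.4 CPM. The coefficient of variation was 9.32% in IRE1KO and 5.09% in WT, where counting error alone would give 2.21% and 2.65%. The partners showed the opposite order: Rxra varied by 2.15% within IRE1KO and by 11.5% within WT, and Rxrb by 3.74% and 10.4%. For both partners the IRE1KO libraries agreed to within about the counting error, which was 2.07% for Rxra and 3.74% for Rxrb.

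Rxra, the main partner of the receptor by transcript level, stood at 117.0, 112.4, 112.7, 114.4 and 117.8 CPM in IRE1KO libraries 1 to 5 and at 104.9, 116.0, 123.0 and 137.8 CPM in WT libraries 1 to 4. The WT libraries spanned the IRE1KO range on both sides, WT library 1 being lowest and WT library 4 highest of all 9. Mean levels were 114.8 ± 2.47 CPM (SD, n = 5) and 120.4 ± 13.8 CPM (SD, n = 4), with a log2 fold change of -0.068 ± 0.069 SE. Without WT library 4 it was 0.0022.

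Rxrb, the second partner, was at 33.2, 35.0, 34.8, 35.6 and 36.8 CPM in IRE1KO libraries 1 to 5 and at 32.4, 34.2, 33.3 and 40.5 CPM in WT libraries 1 to 4. WT library 4 was again the highest, and the other 3 WT libraries lay within or just below the IRE1KO range. Mean levels were 35.1 ± 1.31 CPM (SD, n = 5) and 35.1 ± 3.64 CPM (SD, n = 4), a log2 fold change of -0.00035 ± 0.067 SE whose sign turned with the library left out, from -0.037 to 0.075. In WT library 4 Vdr had its lowest level of all 9 libraries and both partners their highest. Rxrg, the third retinoid X receptor, had 2 to 7 counts per library and was too low to test.

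Per kilobase of exon, the level of Rxra was above that of Vdr in every library, and the gap was narrower in IRE1KO. The ratio of Rxra to Vdr was 1.14, 1.12, 1.29, 1.07 and 1.35 in IRE1KO libraries 1 to 5, and 1.498, 1.54, 1.76 and 2.06 in WT libraries 1 to 4. No IRE1KO library reached the lowest WT ratio. The ratio of Rxrb to Vdr was 0.446 to 0.579 in IRE1KO and 0.623 to 0.833 in WT. Both partners together came to 1.70 ± 0.176 times Vdr in IRE1KO (SD, n = 5) and 2.40 ± 0.353 times in WT (SD, n = 4). Rxra to Rxrb, a ratio without Vdr, was 2.33 to 2.56 in IRE1KO and 2.35 to 2.69 in WT, and there the groups overlapped. These ratios use the same contrast as the choice of Vdr and carry no test.

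**Figure D2:**
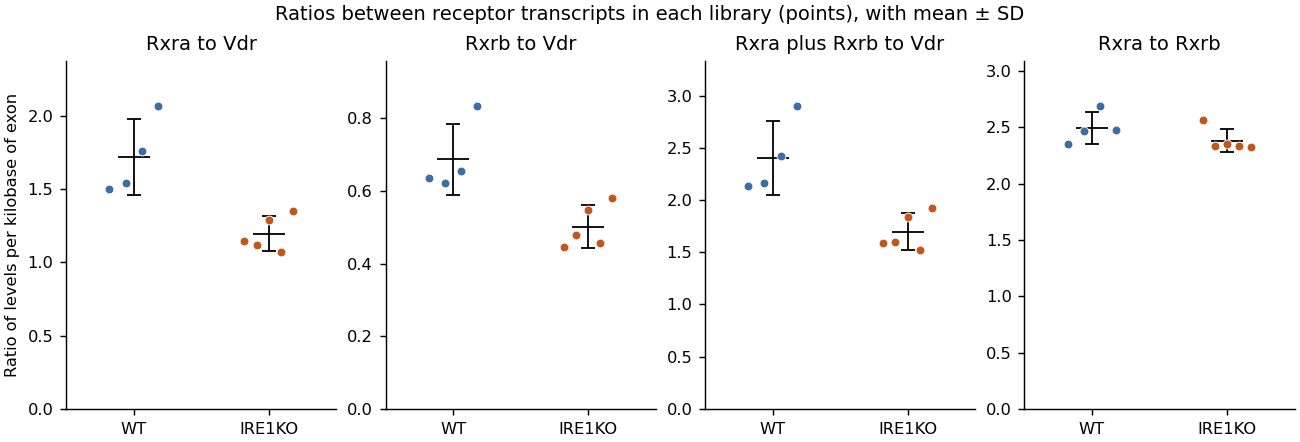
Ratios of levels per kilobase of exon (vertical axes from 0) in each WT (blue, n = 4) and IRE1KO (orange, n = 5) library, with mean ± SD. The 3 ratios with Vdr as the denominator separate the genotypes, Rxra to Vdr at 1.07 to 1.35 in IRE1KO against 1.498 to 2.06 in WT, and the ratio of Rxra to Rxrb does not.

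Cyp27b1, which makes the active hormone, was near the detection floor in both genotypes. It had 9, 3, 6, 6 and 2 counts in IRE1KO libraries 1 to 5 and 7, 3, 7 and 5 counts in WT libraries 1 to 4. The groups overlapped throughout. Summed over libraries, 26 counts in IRE1KO gave 0.256 CPM (95% exact Poisson interval 0.167 to 0.374) and 22 counts in WT gave 0.282 CPM (0.177 to 0.427). The ratio of IRE1KO to WT was 0.906, with an exact 95% interval of 0.494 to 1.68 that covers counting error only.

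Cyp24a1, which degrades the hormone and is the receptor's most responsive target, was lower still. It had 1, 1, 2, 2 and 5 counts in IRE1KO libraries 1 to 5 and 1, 0, 5 and 0 counts in WT libraries 1 to 4, so that all but 2 libraries were under the floor of 3 counts. The groups overlapped. In total, 11 counts in IRE1KO gave 0.108 CPM (95% exact Poisson interval 0.054 to 0.193) and 6 in WT gave 0.0769 CPM (0.0282 to 0.167). Their ratio of 1.41 had an interval of 0.476 to 4.63, and the log2 ratio moved from 0.49 to 2.65 without WT library 3, which held 5 of the 6 WT counts. Differences inside these intervals were not detectable at this depth.

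Set among the other receptors that pair with the retinoid X receptors, Vdr was one of the more abundant transcripts. Per kilobase of exon, Vdr was at 12.9 ± 0.657 CPM per kb in WT (SD, n = 4), the fifth, after Rarg, a retinoic acid receptor, at 22.5 ± 0.648, Rxra at 22.05 ± 2.52, the thyroid hormone receptor Thra at 17.96 ± 6.75 and Nr1h2, a liver X receptor, at 16.7 ± 0.729. Its range in WT (12.2 to 13.8) overlapped those of Nr4a1 (12.1 to 13.9), Rara (10.7 to 13.8) and Thra (12.0 to 27.3), and lay below that of Nr1h2 (15.7 to 17.3). In IRE1KO it was the fourth at 17.7 ± 1.65 CPM per kb (SD, n = 5), with a range of 16.0 to 19.6 that took in Nr1h2 (17.2 to 19.2) and lay above Thra (12.6 to 14.3). Rxrb, at 8.83 ± 0.330 CPM per kb in IRE1KO and 8.83 ± 0.917 in WT, overlapped Ppard in both. The enzymes were lowest of the members, Cyp27b1 at 0.0993 ± 0.0525 CPM per kb in IRE1KO and 0.109 ± 0.0373 in WT.

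**Figure D3:**
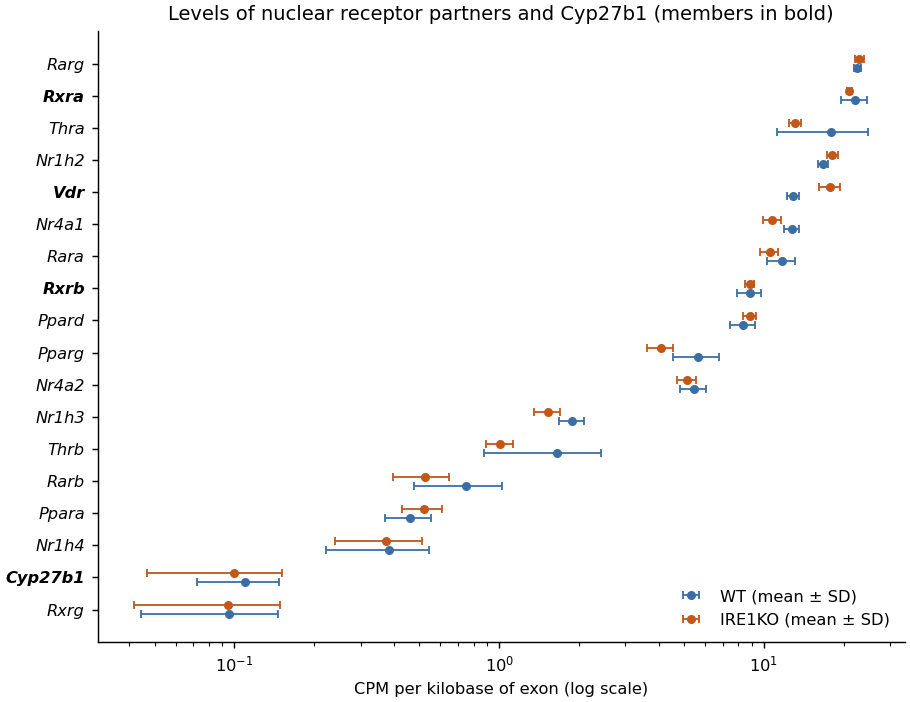
Mean level ± SD per kilobase of exon (log axis, CPM per kb) in WT (blue, n = 4) and IRE1KO (orange, n = 5), ordered by the WT mean, for receptors that pair with the retinoid X receptors, the retinoid X receptors and Cyp27b1, with members in bold. Cyp24a1, Nr1i2 and Nr1i3 lie below the axis and are left out. Vdr is at 17.7 in IRE1KO and 12.9 in WT.

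The remaining genes of the pathway were taken from 5 lists. Together they named 75 different genes, of which 61 were tested. None of the 61 passed the edgeR test adjusted over the whole table, while 19 of the 61 (31.1%) had an unadjusted p under 0.05, against 16.5% of all tested genes. DESeq2 called 5 of the 61 (8.20%; 4.14% of all genes) and limma voom called 0 (0.117% of all genes). Of the 61, 24 had positive and 37 negative fold changes, with a median log2 fold change of -0.070, beside -0.0050 over all tested genes. The lists overlapped, since Cebpb, Runx2, Rara, Rarb and Rarg each stood in 2 of them.

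In the list of hormone supply, 6 genes were tested, and the genotypes overlapped in each. Of all tested genes only 6.93% had no overlap, so this says little. None of the 6 passed in edgeR (0.634% of all genes), and 1 (16.7%) had an unadjusted p under 0.05 (16.5% of all genes). Neither DESeq2 (4.14% of all genes) nor limma voom (0.117%) called any. The median log2 fold change of the 6 was -0.24, and -0.11 in limma voom. The list was broader than its name, since it also held Pdia3 (log2 fold change 0.00099, part of the median) and Rxrg, which was not tested. Cubn, which encodes an endocytic receptor for the vitamin D binding protein, averaged 11.3 ± 1.49 CPM (SD) over IRE1KO against 14.4 ± 2.59 CPM over WT libraries, with a log2 fold change of -0.35 ± 0.14 SE. The hydroxylase Cyp27a1 had a log2 fold change of -0.32 ± 0.19 SE. Dhcr7, which turns the precursor of vitamin D into cholesterol, was at -0.18 ± 0.19 SE and turned to 0.073 without WT library 4. Lrp2, the partner of cubilin, was at 52.2 to 65.8 CPM in IRE1KO but at 163, 68.9, 35.5 and 9.83 CPM in WT libraries 1 to 4, so that its WT libraries ran from far above to far below IRE1KO. The binding protein gene Gc and the liver enzyme Cyp3a11 were too low to test.

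Coregulators of the receptor all had enough counts to be tested, and their fold changes went both ways, 8 positive and 8 negative. None of the 16 passed in edgeR (0.634% of all genes), and 5 (31.2%) had an unadjusted p under 0.05 (16.5% of all genes). The median log2 fold change was -0.012, and the lowest was that of Hr at -0.53 ± 0.32 SE. Med1, the Mediator subunit that contacts the hormone-bound receptor, was at 103, 102, 108, 99.6 and 107 CPM in IRE1KO libraries 1 to 5 and at 94.9, 91.9, 93.0 and 90.0 CPM in WT libraries 1 to 4. The groups did not overlap, and the log2 fold change was 0.17 ± 0.036 SE (adjusted p = 0.0774, edgeR). For Ncoa2, a coactivator of the p160 family, the log2 fold change was -0.094 ± 0.033 SE. In all, 3 of the 16 coregulators (18.8%) had groups that did not overlap, Med1, Ncoa2 and Bag1, beside 6.93% of all genes. DESeq2 called Med1 higher (6.25% of the list, beside 4.14% of all genes) and limma voom called none (0.117% of all genes). Without WT library 1 Med1 was called higher and Trim24 lower in edgeR, in a fit that called 8.63% of all genes.

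Reported targets of the receptor had fold changes of both signs. Since the list holds genes that calcitriol raises and genes that it lowers, the signs do not measure receptor activity. Of 28, 19 were tested, 8 with positive and 11 with negative fold changes and a median of -0.032. None passed in edgeR (0.634% of all genes), and 6 (31.6%) had an unadjusted p under 0.05 (16.5% of all genes). The groups did not overlap in 2 (10.5%), Tnfsf11 and Cebpb, beside 6.93% of all genes. Tnfsf11 (RANKL), the osteoclast-inducing cytokine that calcitriol raises in osteoblasts, was at 13.98, 15.003, 14.1, 14.9 and 13.4 CPM in IRE1KO libraries 1 to 5 and at 9.96, 8.98, 8.79 and 13.3 CPM in WT libraries 1 to 4. WT library 4 came to just below the lowest IRE1KO library, and the other 3 were well below. Its log2 fold change was 0.48 ± 0.12 SE (adjusted p = 0.110, edgeR), about the size of that of Vdr. Tnfsf11 was called by DESeq2 (4.14% of all genes called) and, in edgeR, without WT library 4 (2.90%). Tnfrsf11b (osteoprotegerin), the decoy receptor that calcitriol lowers, averaged 58.2 ± 2.15 CPM (SD) over IRE1KO against 63.0 ± 4.20 CPM over WT libraries, with a log2 fold change of -0.12 ± 0.052 SE.

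Spp1 (osteopontin), a matrix protein whose promoter holds a known response element, lay in the other direction. It was at 824, 725, 849, 1017 and 813 CPM in IRE1KO libraries 1 to 5 and at 688, 1939, 1879 and 1287 CPM in WT libraries 1 to 4. WT library 1 fell below every IRE1KO library while the other 3 WT libraries were above them all. The log2 fold change of Spp1 was -0.78 ± 0.26 SE (adjusted p = 0.205, edgeR). Phex, a protease gene of osteocytes that acts in phosphate handling, was at 0.820 to 1.44 CPM in IRE1KO and at 1.23, 2.16, 2.27 and 5.70 CPM in WT, a log2 fold change of -1.29 ± 0.41 SE (adjusted p = 0.187, edgeR) that was -0.71 without WT library 4. Spp1 and Phex were called lower in edgeR without WT library 1, and Tnfsf11 and Col1a1 higher without WT library 4, a fit that called 2.90% of all genes.

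For Lrp5, a Wnt coreceptor, the log2 fold change was -0.11 ± 0.083 SE, and for Enpp1, which makes the mineralization inhibitor pyrophosphate, -0.10 ± 0.11 SE. Cebpb, a transcription factor that calcitriol induces and that acts with the receptor on Cyp24a1, ranged from 48.0 to 54.8 CPM over IRE1KO and from 38.6 to 47.4 CPM over WT libraries. Its groups did not overlap, and its log2 fold change was 0.23 ± 0.068 SE (adjusted p = 0.160, edgeR). Of the targets named by rule, 3 were too low to test. Trpv6, the calcium channel of the gut, had 0 counts in every library, which allows up to 0.137 to 0.159 CPM per library (3 counts). Fgf23, the phosphate hormone of osteocytes, had 3 counts over the IRE1KO libraries and 1 over the WT libraries, and Bglap 10 and 3.

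Factors reported to control Vdr transcription included 12 genes, all tested. None passed in edgeR, 3 had an unadjusted p under 0.05, and the median log2 fold change was -0.053. Snai2 (Slug), a repressor that binds E-boxes and is known to lower Vdr in other cells, was at 35.2, 36.1, 34.3, 36.0 and 36.1 CPM in IRE1KO libraries 1 to 5 and at 39.4, 43.7, 46.7 and 57.1 CPM in WT libraries 1 to 4. The groups did not overlap, WT library 1 being nearest to IRE1KO, and the log2 fold change was -0.40 ± 0.093 SE (adjusted p = 0.0934, edgeR). Snai2 was called lower by DESeq2 (4.14% of all genes called) and in edgeR without WT library 1 (8.63%) or without WT library 4 (2.90%). Limma voom (0.117%) did not call it. Its relative Snai1 (Snail), a repressor of the same kind, had the opposite sign, with 112 to 143 CPM over IRE1KO, 104 to 121 CPM over WT libraries and a log2 fold change of 0.21 ± 0.076 SE (adjusted p = 0.222, edgeR). The groups overlapped for Snai1. The glucocorticoid receptor Nr3c1, the cyclic AMP response factor Creb1, the parathyroid hormone receptor Pth1r and Sp1, the GC box factor, were among the 12 and did not pass.

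The retinoid X receptors also pair with other receptors, of which 13 of 15 were tested. None passed in edgeR (0.634% of all genes) and 5 (38.5%) had an unadjusted p under 0.05 (16.5% of all genes). The groups did not overlap in 1 (7.69%), beside 6.93% of all genes. Signs were 4 positive and 9 negative, with a median log2 fold change of -0.15. Nr4a1 (Nur77), an immediate early receptor, ranged from 32.9 to 40.0 CPM over IRE1KO and from 42.5 to 48.8 CPM over WT libraries without overlap, a log2 fold change of -0.25 ± 0.069 SE (adjusted p = 0.145, edgeR). For Pparg, the adipogenic receptor, the log2 fold change was -0.47 ± 0.13 SE, and for Thrb, a thyroid hormone receptor, -0.71 ± 0.28 SE. DESeq2 called Pparg and Nr4a1 lower (15.4% of the 13, beside 4.14% of all genes), and limma voom called none (0.117% of all genes). In edgeR, Thrb was called lower without WT library 1 (8.63% of all genes called) and Pparg without WT library 4 (2.90%).

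**Figure D4:**
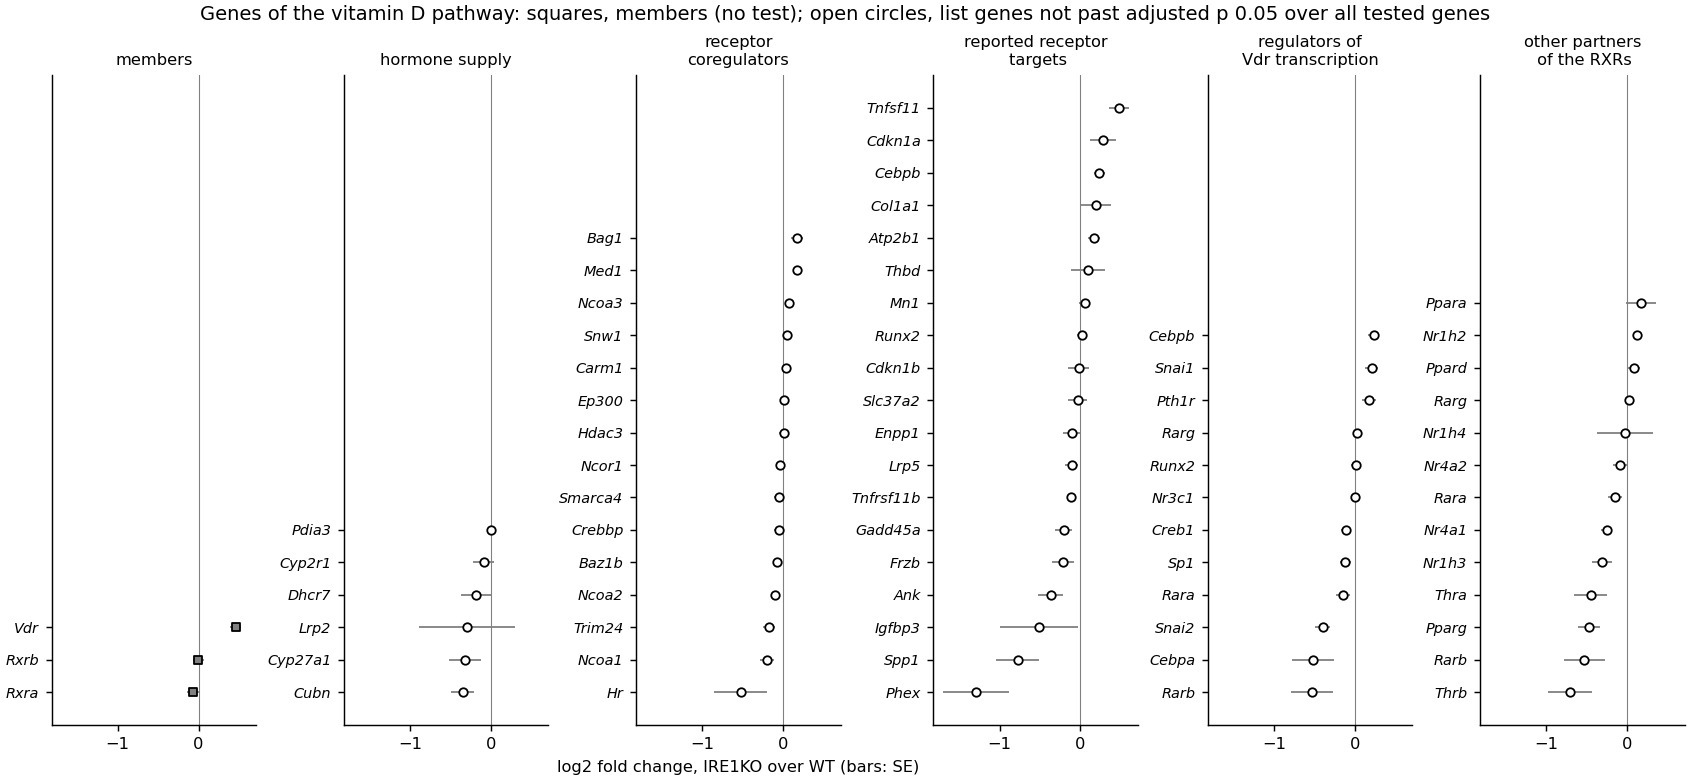
Log2 fold change, IRE1KO over WT (horizontal axes, the same in all panels), with SE, for the tested genes of the 5 members and of the 5 pathway lists (1 coregulator is not drawn), ordered by value within a panel. Members are grey squares, given as a description with no test, and list genes are open circles, none of which passed over all tested genes in edgeR. Tnfsf11 at 0.48 is the highest and Phex at -1.29 the lowest of the list genes.

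No tested gene close to Vdr on chromosome 15 passed, and their fold changes went both ways. Within 500 kb of Vdr lay 22 genes of the count table, of which 13 were tested. In edgeR 0 of the 13 passed, which says little since only 0.634% of all tested genes did. An unadjusted p under 0.05 was found for 4 of them, beside 16.5% of all tested genes. DESeq2 called 1 of them (4.14% of all genes) and limma voom 0 (0.117% of all genes). Their log2 fold changes ran from -0.95 to 0.44 with a median of 0.056. Hdac7, a histone deacetylase 9.92 kb away, was at 0.025 ± 0.069 SE, and Col2a1, the cartilage collagen gene 65.0 kb away on the other side, at -0.18 ± 0.19 SE. Those 2 genes and the window were chosen after their values could be seen.

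Across the 9 libraries, the genes whose levels followed Vdr most closely were ranked by Pearson's r of log2 CPM among the 11090 tested genes whose mean reached 5 CPM. The first 8 were Ralgps2, which encodes an exchange factor for Ral GTPases (r = 0.976), Kctd8, an auxiliary subunit of GABA-B receptors (0.973), the growth factor Fgf9 (0.972), the chemokine Cxcl14 (0.959), Tmem90b (0.957), the chemokine Cxcl5 (0.953), Il4ra, a chain of the interleukin-4 receptor (0.951), and Casc4 (0.947). A gene that separates the genotypes or splits the IRE1KO libraries as Vdr does is bound to rank high. The values, within genotypes too, are therefore a description with no test. After each library was set relative to the mean of its own genotype, r was 0.728 to 0.920 for the 8, highest for Kctd8. In each of the 8, IRE1KO libraries 3 and 5 were lower than IRE1KO libraries 1, 2 and 4, as in Vdr. All 8 had groups that did not overlap, beside 6.93% of all tested genes. The ranking by likeness to Vdr favours both traits, so nothing is read from them. Fgf9 was at 11.8, 8.70, 7.97, 13.7 and 7.67 CPM in IRE1KO libraries 1 to 5 and at 3.42, 3.59, 2.27 and 1.99 CPM in WT libraries 1 to 4. With ranks (Spearman) in place of Pearson's r, 2 of the 8 remained among the first 8, and without WT library 4, 4 remained.

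**Figure D5:**
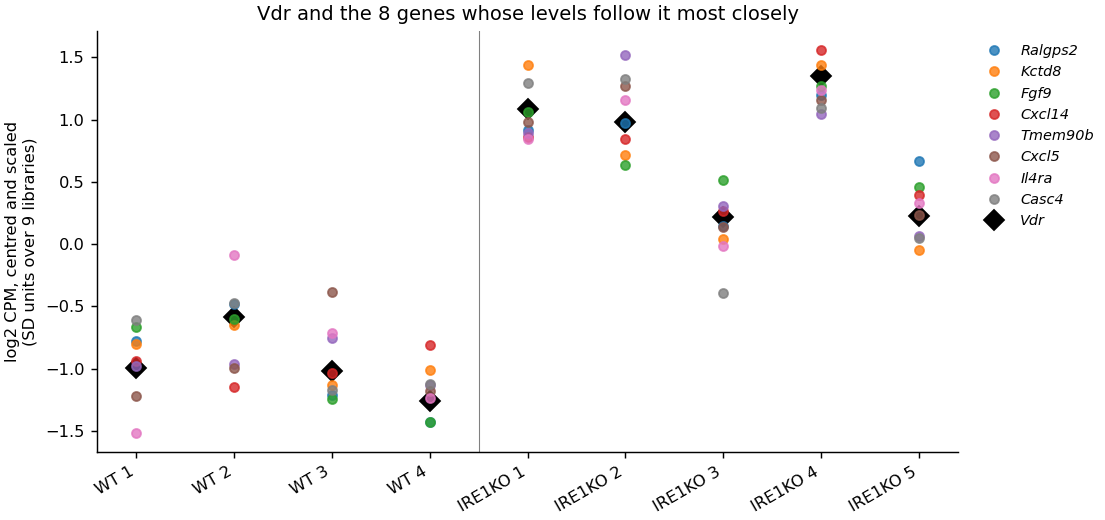
Log2 CPM of Vdr (black diamonds) and of the 8 genes most like it (coloured points), each centred and scaled over the 9 libraries (vertical axis, SD units), by library (horizontal axis). IRE1KO libraries 3 and 5 lie between the WT libraries and IRE1KO libraries 1, 2 and 4, an order that the choice of genes by likeness to Vdr favours.

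Markers of other cells that could be in the culture were read beside Vdr. Macrophages and osteoclasts, which can express Vdr and Cyp27b1, had 10 of 10 markers tested, and their summed level was 328 to 515 CPM in IRE1KO and 215 to 487 CPM in WT. Within IRE1KO that sum was 430, 473 and 515 CPM in libraries 1, 2 and 4 and 328 and 340 CPM in libraries 3 and 5, the same split as in Vdr. Within WT the order differed, since WT library 2 had the lowest sum, 215 CPM, with the highest Vdr, and WT library 4 the highest sum, 487 CPM, with the lowest Vdr. Much of the sum was Ctsk, at 173 to 215 CPM in IRE1KO and 123 to 203 CPM in WT. Lyz2 was at 71.4 to 163 CPM and 42.8 to 147 CPM, and no other marker of that list passed 51.3 CPM (Mrc1). The part of macrophages and osteoclasts in the level of Vdr was not tested. Keratinocyte markers, 1 of 6 tested, summed to 1.75 to 3.01 CPM in IRE1KO and 2.30 to 2.98 CPM in WT, mostly Krt10, with Krt14 at 0 to 0.0971 CPM. Lymphocyte markers summed to at most 0.717 CPM, with Cd3e, Cd3d and Cd8a at 0 in every library.

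Chondrocyte markers, 5 of 6 tested, summed to 699 to 1362 CPM in IRE1KO and 1240 to 1369 CPM in WT, most of it Col2a1, with Matn1 at 0 to 0.0505 CPM. Endothelial markers, 4 of 5 tested, summed to 7.81 to 11.5 CPM in IRE1KO and 8.26 to 21.2 CPM in WT. Pecam1 was called lower, at 0.0531 to 0.291 CPM in IRE1KO, around the detection floor, and 0.562 to 0.924 CPM in WT. The ranges of Cdh5, Kdr, Tek and Vwf overlapped between the genotypes, and none of those was called. For 2 of the marker lists the summed level separated the genotypes as Vdr did, in the other direction. Glial markers, 5 of 6 tested, were at 11.4 to 16.7 CPM in IRE1KO and 19.2 to 71.4 CPM in WT, with Ngfr called lower. Adipocyte markers, 4 of 6 tested, were at 43.5 to 53.5 CPM and 70.5 to 115 CPM, with Plin4, Lpl and Fabp4 called lower. The edgeR fit behind these marker calls called 0.379% of all tested genes lower. Its number of calls in either direction ran from 2 to 1192 with 1 library left out. Defining genes of mature adipocytes were scarce, Adipoq reaching 0.505 CPM. The part of either in the pathway genes was not tested.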

How the data were processed

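RNA with poly(A) tails was sequenced from 5 IRE1KO and 4 WT libraries, in 1 batch per the labels' protocols. The values the authors deposited are raw counts (whole reads for each gene), not normalized. The submitters' processing notes name STAR, limma and mm10 and give them no roles. No source used here states the counting program, its annotation or its strand setting. Library totals of 18784636 to 22028075 counts limit the precision, and count intervals hold counting error alone.

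R 4.3.3 was used with DESeq2 1.42.0, limma 3.58.1 and edgeR 4.0.16, and Python 3.11.15 with SciPy 1.17.1, pandas 2.3.3, NumPy 2.4.6 and matplotlib 3.10.9. After filterByExpr, 13712 genes were scaled by TMM and fitted with genotype as the sole term (edgeR robust quasi-likelihood). P-values were adjusted by Benjamini-Hochberg over all of them, with 0.05 as threshold, and every fold change sets IRE1KO over WT. The procedure was tested on simulated data. Levels per kilobase use union exon lengths of GENCODE M21 (GRCm38). Likeness used log2 CPM with a prior count of 2. Promoters were from RefSeq (GRCm38.p6), in which 4 of the 5 members had an entry.

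Members and lists were chosen with earlier results of these data known. Named genes were the members, Ern1, for each list every gene that passed and the 3 with the smallest p, the targets Spp1, Bglap, Tnfsf11, Tnfrsf11b, Lrp5, Fgf23, Enpp1, Phex and Trpv6, and the 8 genes most like Vdr. Others were named after their values were seen, and some list genes are not reported here by name. Alternatives were DESeq2's size factors, DESeq2, limma voom, no filter, at least 1 CPM in at least 4 libraries, leaving out each library, and a replicate block. The labels do not say whether libraries share a litter or sort day.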

Additional observations from a re-analysis of the deposited data

Results flagged for a closer look

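Each named gene was searched, in each genotype, for a library that stood far from the others of its group relative to the group's range (Dixon's criterion at the 95% level). Of 68 groups searched, 3 were picked out, and chance picks out about 1 in 20. Snai1 was at 120.8 CPM in WT library 3, against 104.2 to 106.9 CPM in the other WT libraries. Tnfrsf11b was at 56.7 CPM in WT library 4, against 64.7 to 65.3 CPM in the others. Fgf23 was at 0.0505 CPM in WT library 3, which is 1 count, against 0 in the others. Where all the others are at 0, any count is picked out, so the Fgf23 flag carries no information. None of the 5 members had such a library in either genotype.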

How the results depend on the processing

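Over the alternatives run, the log2 fold change of Vdr stayed between 0.42 and 0.49, and its lowest and highest values without 1 library were 0.42 and 0.49. Without 1 library, Rxra ranged from -0.13 to 0.0022, Rxrb from -0.037 to 0.075, the log2 ratio of Cyp27b1 from -0.43 to 0.073 and that of Cyp24a1 from -0.053 to 2.65, and Ern1 from 0.11 to 0.24 (passing in edgeR without WT library 1).

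The number of genes called over the whole table depended on the libraries. It was 87 (35 higher, 52 lower), and 568 (234 and 334) with DESeq2, 16 (6 and 10) with limma voom and 45 (18 and 27) with no low-count filter. Without 1 library it ran from 2 to 1192, with 1 to 466 higher and 1 to 726 lower. With the replicate block over libraries 1 to 4 of each genotype it was 0, with 0 higher and 0 lower, against 3 without IRE1KO library 5 and without the block. Correlations between same-numbered libraries, as deviations from their group means, were 0.151, -0.204, -0.194 and 0.473. Those between libraries of different number ran from -0.542 to 0.515. Such values cannot show or exclude a shared litter or sort day, so whether equal numbers mark pairs is not known. Over the genes named singly and the list medians, 400 values kept direction and call, 44 lost the call (all in Cxcl14, Cxcl5, Fgf9, Ralgps2 and Tmem90b), 17 gained it, 3 moved (the median of hormone supply, -0.11 in limma voom, -0.13 with no filter and -0.086 under the block) and 1 reversed. Under the block Vdr had a log2 fold change of 0.49 and was not called.

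Of the pathway lists, DESeq2 called 1 of 16 coregulators and 1 of 19 reported targets higher. It called 1 of 12 regulators of Vdr and 2 of 13 other partners lower, beside 4.14% of all genes in either direction. Without 1 library, 0 to 2 coregulators were called higher and 0 to 1 lower, and 0 to 2 reported targets higher and 0 to 2 lower. For regulators of Vdr and for other partners, 0 to 1 were called lower. The highest of these counts were reached without WT library 1, where 8.63% of all genes were called, or without WT library 4 (2.90%). No gene of hormone supply was called in any setting. Dhcr7 ranged from -0.29 to 0.073 without 1 library and reversed, to 0.073, without WT library 4. Of the 8 genes most like Vdr, 2 remained by rank correlation and 4 without WT library 4. The cause of these shifts was not tested. At this depth, changes in Cyp27b1 and Cyp24a1 are limited by counts.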
